A study of Mus musculus with 9 samples.

Results

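The genes described here encode the subunits of IL-12, IL-23 and IL-27: Il12a, Il12b, Il23a, Il27 and Ebi3. All 5 were found by their Ensembl identifiers, named with GENCODE release M21, among the 54059 genes with a value in each of 9 RNA sequencing libraries. The libraries came from adherent peritoneal macrophages of C57BL/6 mice aged 8 weeks per the labels, collected 3 days after 1 ml of starch broth was injected into the peritoneal cavity. Per the study's methods, the cells of all 3 groups were stimulated in vitro with imiquimod (IMQ), a TLR7 agonist, for 4 h. The groups were wild type (n = 3), M-Shp2-/- (n = 3) and SHP099 (n = 3). M-Shp2-/- mice are Lyz2-cre:Shp2 fl/fl, in which Cre acts in monocytes and granulocytes as well as in macrophages. SHP099 is an allosteric inhibitor of the phosphatase SHP2, given to wild-type cells at 10 µM for 2 h before IMQ at 10 µg/ml. Libraries of unstimulated cells were not analysed here, so each value is a level after IMQ and not an induction. No label says whether replicates came from separate animals, and p-values therefore measure only the spread between these samples.

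Cytokines of this family are heterodimers, each built from an alpha chain that resembles IL-6 and a partner that resembles a soluble receptor. Il12b encodes the partner shared by IL-12, where it pairs with the product of Il12a, and IL-23, where it pairs with that of Il23a. Ebi3 encodes the partner of IL-27, where it binds the product of Il27, and of IL-35, where it binds that of Il12a. Macrophages and dendritic cells secrete IL-12, IL-23 and IL-27 after Toll-like receptor signals. IL-12 drives interferon-gamma in T and NK cells, while IL-23 sustains T cells that make IL-17.

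The values are FPKM, read fragments scaled to the length of the transcript and the size of the library, so levels of different genes can be set side by side. Multiplied by mean transcript length, FPKM worth up to 50 reads came within 0.05 of a whole number of reads for 96.3% to 96.7% of values, with 39843791 to 50982075 reads behind the normalization of a library. Ptpn11, which encodes SHP2, served as the check of the labels. Its FPKM was 45.8, 44.0 and 39.99 in wild-type replicates 1, 2 and 3, and 18.6, 17.8 and 18.9 in M-Shp2-/-. SHP099 libraries held 43.0, 42.1 and 39.6. The gene was thus lower in 3 of 3 M-Shp2-/- libraries than in any other, with a log2 fold change of -1.19 ± 0.10 (SE) against wild type (limma, adjusted p = 0.0168), and of -1.13 ± 0.08 against SHP099 (adjusted p = 0.0109). Against wild type its adjusted p was above 0.05 without wild-type replicate 1 or 2 or M-Shp2-/- replicate 1 or 2, and 0.196 at most over left-out replicates. Against SHP099 it was above 0.05 without any 1 replicate other than M-Shp2-/- replicate 3, and 0.115 at most over left-out replicates. With the replicate number as a block it was 0.157 against wild type and 0.146 against SHP099.

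Markers of other cells varied between libraries, and M-Shp2-/- replicate 3 stood apart from the rest of its group, with a Pearson r of log2(FPKM + 1) across genes of 0.967 and 0.954 with replicates 1 and 2, which had 0.992 between them. The 7 fibroblast and mesothelium markers, led by Col1a1, summed to 56.5, 272 and 36.3 FPKM in wild type. Their sum was 123, 45.9 and 549 FPKM in M-Shp2-/-, and 334, 127 and 95.0 FPKM in SHP099. M-Shp2-/- replicate 3, wild-type replicate 2 and SHP099 replicate 1 were the highest of their groups, while Lum and Upk3b stayed under 1 FPKM in all 9 libraries.

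All 7 macrophage markers passed the filter of a mean of 1 FPKM, led by Lyz2, and their sum ranged from 6879 to 12559.6 FPKM. Without Lyz2 the sum was 1976, 1805 and 1743 FPKM in wild type, 2027, 2136 and 1785 in M-Shp2-/-, and 1661, 1791 and 1844 in SHP099. Lyz2 itself had 4863, 4743 and 5407 FPKM in M-Shp2-/- against 7440.3, 10228 and 7951 in wild type (adjusted p = 0.388). The Cre of M-Shp2-/- mice is Lyz2-cre, and its part in the level of Lyz2 was not tested. Of the 8 dendritic cell markers, Itgax was the most abundant, a gene that encodes the integrin CD11c and that macrophages also express. Itgax had 162, 77.8 and 54.9 FPKM in wild type, 200, 267 and 13.5 in M-Shp2-/-, and 14.9, 19.5 and 20.2 in SHP099. Flt3, Xcr1, Clec9a and Cd209a, which define dendritic cells, stayed under 1 FPKM in every library. Zbtb46 and Batf3, from the same list, reached 1.21 FPKM in M-Shp2-/- replicate 3 and 1.13 FPKM in wild-type replicate 1. Neither passed the filter. The 7 T and NK cell markers summed to at most 5.45 FPKM, with Cd4, Ncr1 and Klrb1c under 1 FPKM throughout. Of the 7 neutrophil markers, S100a8 led while Ly6g, Cxcr2, Mpo and Elane stayed under 1 FPKM. Kit led the 5 mast cell and eosinophil markers, and the other 4 stayed under 1 FPKM. Markers that passed in SHP099 against wild type included Csf1r, which rose by 1.38 on the log2 scale (adjusted p = 0.0222, and 0.0628 after median-of-ratios scaling), and Itgax and Ccr7, with log2 fold changes of -2.23 and -1.52 (adjusted p = 0.0224 and 0.0192). All 3 lost the call with no filter and without any 1 SHP099 replicate, and Itgax also with all 9 libraries in the fit (0.184). Csf1r was the 1 macrophage marker of 7 that passed. In this comparison 4 of the 7 had log2 fold changes below 0, as did 3298 of 11450 genes, and their median was -0.14. Fewer cells of a type and less RNA per cell cannot be told apart in such libraries.

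Il12b, the shared chain of IL-12 and IL-23, was the most abundant subunit in wild type and the most variable. The gene (ENSMUSG00000004296) lies on the plus strand of chr11:44400063-44414033 in GRCm38, and no other annotated exon overlaps its own. Wild-type libraries held 1411, 247 and 737 FPKM of Il12b, a 5.72-fold span within the group. M-Shp2-/- libraries held 340, 509 and 75.8 FPKM. SHP099 libraries held 31.3, 57.3 and 98.4 FPKM, each below the lowest wild-type library. M-Shp2-/- lay between them, with replicates 1 and 2 inside the wild-type range and replicate 3 inside that of SHP099. The group means were 798 ± 585 (SD, n = 3) in wild type, 308 ± 218 (SD, n = 3) in M-Shp2-/- and 62.3 ± 33.8 (SD, n = 3) in SHP099.

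Promoters were taken from RefSeq (GRCm38.p6), which matched 3 of the 5 genes: Il12b, Ebi3 and, with starts at different positions, Il12a. They are shown because Il12b and Ebi3 differed most in how far their levels moved in SHP099 against wild type. Each run gives the 250 bases before the start, 5′ to 3′. Both strands were searched for short forms of 5 motifs: the kappa B site, the AP-1 site, the interferon-stimulated response element, the core of the PU.1 site and the TATA box. Capitals mark the matches.
Il12b, plus strand, chr11:44399813-44400062: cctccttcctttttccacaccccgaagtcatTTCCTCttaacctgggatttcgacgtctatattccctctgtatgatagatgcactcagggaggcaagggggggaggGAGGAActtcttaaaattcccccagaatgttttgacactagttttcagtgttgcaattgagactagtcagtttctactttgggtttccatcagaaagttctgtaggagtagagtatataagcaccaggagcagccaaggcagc
Ebi3, plus strand, chr17:55952373-55952622: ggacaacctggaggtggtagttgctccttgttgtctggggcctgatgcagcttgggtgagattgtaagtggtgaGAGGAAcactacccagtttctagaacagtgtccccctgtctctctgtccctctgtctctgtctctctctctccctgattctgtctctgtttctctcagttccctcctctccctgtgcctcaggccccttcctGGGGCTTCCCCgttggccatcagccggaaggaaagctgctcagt
Il12a, plus strand, chr3:68691174-68691423: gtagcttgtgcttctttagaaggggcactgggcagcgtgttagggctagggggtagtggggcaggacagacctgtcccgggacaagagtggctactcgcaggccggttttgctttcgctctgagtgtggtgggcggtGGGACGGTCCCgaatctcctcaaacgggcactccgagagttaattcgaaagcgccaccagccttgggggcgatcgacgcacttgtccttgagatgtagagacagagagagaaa
Il12b held the PU.1 core on both strands, at -219 to -214 and at -143 to -138 counted back from the start. Ebi3 held a PU.1 core at -176 to -171 and overlapping kappa B forms between -44 and -34. In the Il12a window shown, kappa B forms on both strands overlapped between -113 and -103, and the other Il12a window (chr3:68690394-68690643) held none of the 5 motifs. Of 32851 mouse promoters of this length, 45.8% held the kappa B form, 23.3% the PU.1 core, 12.4% the TATA box, 6.75% the AP-1 motif and 2.98% the interferon-stimulated response element, so the matches describe these letters and no more.

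Il23a, the alpha chain particular to IL-23, was the least abundant subunit. The gene (ENSMUSG00000025383) lies on the minus strand of chr10:128296139-128298752 and shares no exonic bases with another gene. Wild-type libraries held 7.86, 4.62 and 10.1 FPKM, from 538, 363 and 665 recovered reads. M-Shp2-/- libraries held 0.931, 1.43 and 2.57 FPKM, from 62, 91 and 181 reads. SHP099 libraries held 0.813, 0.472 and 1.04 FPKM, from 55, 29 and 70 reads. Every wild-type library was above every other library, and M-Shp2-/- and SHP099 overlapped. M-Shp2-/- replicate 3, the lowest of its group for the other 4 subunits, was the highest for Il23a.

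Il12a, the alpha chain of IL-12, had 124, 63.4 and 183 FPKM in wild type. The gene (ENSMUSG00000027776) lies on the plus strand of chr3:68690644-68698547. M-Shp2-/- libraries held 59.5, 69.3 and 49.0 FPKM of Il12a and SHP099 libraries 45.1, 60.5 and 84.9 FPKM. Wild-type replicate 2 was inside the range of both other groups, while replicates 1 and 3 were above them.

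Il27 (ENSMUSG00000044701), the alpha chain of IL-27, lies on the minus strand of chr7:126589010-126594941. It had 89.4, 48.1 and 114 FPKM in wild type, 41.5, 40.7 and 21.6 FPKM in M-Shp2-/-, and 21.3, 21.8 and 44.7 FPKM in SHP099. All 3 wild-type libraries were above all 6 others. Exons of Apobr on the opposite strand cover 10.1% of the exonic bases of Il27, and the strand of counting is not given, so reads there cannot be told apart. Apobr itself ranged only from 77.9 to 110 FPKM.

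Ebi3 (ENSMUSG00000003206), the partner of Il27, lies on the plus strand of chr17:55952640-55957022. It had 19.9, 13.6 and 13.9 FPKM in wild type, 20.4, 17.0 and 12.4 FPKM in M-Shp2-/-, and 11.3, 14.3 and 16.3 FPKM in SHP099. All 3 groups overlapped. Gm16712 on the opposite strand covers 23.4% of its exonic bases and had 1.34 to 3.30 FPKM.

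**Figure D1:**
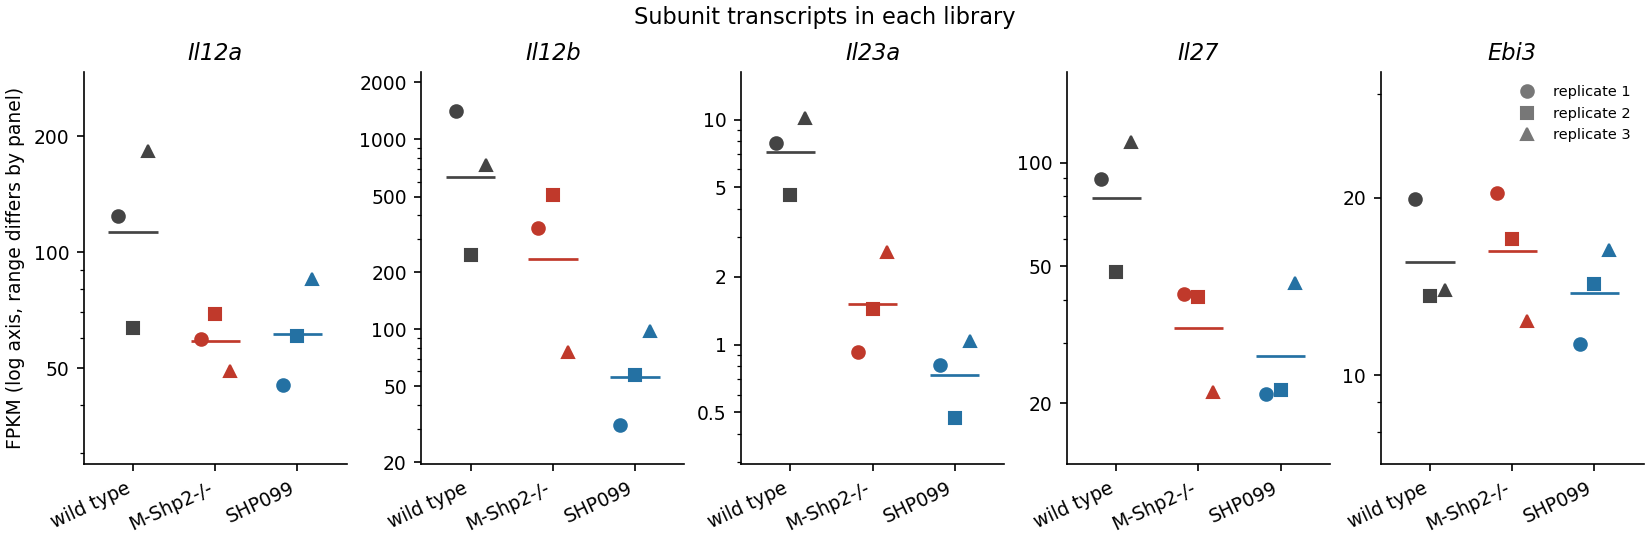
FPKM of each subunit gene (log axis, a range of its own per panel) in the 3 libraries of each group, with symbols for the replicate number and a line at the geometric mean. Il12b in SHP099 lies between 31.3 and 98.4 FPKM, below the lowest wild-type library at 247 FPKM, whereas Ebi3 stays between 11.3 and 20.4 FPKM in all 9 libraries.

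By mean FPKM the order in wild type was Il12b, Il12a, Il27, Ebi3 and Il23a, at 798, 124, 84.0, 15.8 and 7.54. Il12a and Il27 overlapped over the wild-type libraries and the other neighbours did not. M-Shp2-/- kept this order, at 308, 59.2, 34.6, 16.6 and 1.65 FPKM, with no overlap between neighbours. SHP099 differed in its first places, with Il12a at 63.5 and Il12b at 62.3 FPKM, whose ranges overlapped, and Il12a was above Il12b in 2 of 3 libraries. These FPKM follow mean transcript length, 1098 bases for Il12a and 1902.5 for Il12b. The longest transcripts have 1303 and 1944 bases, and the order of these 2 genes in SHP099 depends on the length chosen. Il27, Ebi3 and Il23a followed at 29.3, 14.0 and 0.773 FPKM. The ranges of Il12b and Il27 also overlapped in SHP099, although Il12b was above Il27 in 3 of 3 libraries.

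The comparison of M-Shp2-/- with wild type asks what loss of SHP2 in myeloid cells does to the level of each subunit after IMQ. No subunit passed the call rule of an adjusted p of at most 0.005 with a log2 fold change of at least 1, which 0.00873% of 11450 genes passed downward. At a limit of 0.05 on the adjusted p, 0 of 5 passed, against 0.0873% of all genes lower at that level. The log2 fold changes, taken on FPKM + 1 and so understating the change of low genes, were -1.68 ± 0.33 (SE) for Il23a (adjusted p = 0.375), -1.42 ± 0.86 for Il12b (0.518), -1.23 ± 0.37 for Il27 (0.454) and -0.94 ± 0.37 for Il12a (0.465). Ebi3 had 0.06 ± 0.22 (0.8997), and -0.11 after median-of-ratios scaling of the libraries. Single replicates weighed on these values, which without 1 of them ran from -2.10 to -0.61 for Il12b and from -1.35 to -0.59 for Il12a. With 5 FPKM added in place of 1, Il23a had -0.90. Il23a, Il27 and Il12a had an unadjusted p under 0.05 in limma, 3 of 5 subunits, as against 1204 of 11450 genes. By voom on the recovered reads, 3 of 5 had an unadjusted p under 0.05, as against 1152 of 11353 genes, and 0 an adjusted p of at most 0.05. Il23a and Il27 were lower in M-Shp2-/- without overlap between groups, a pattern of 3.07% of all genes tested.

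The comparison of SHP099 with wild type asks the same of the inhibitor, with the same wild-type libraries. Il12b and Il23a fell with an adjusted p under 0.05, as 2.41% of all genes did. Il12b fell by 3.48 ± 0.66 (SE) on the log2 scale (limma, adjusted p = 0.0309), an 11.1-fold difference between the fitted group means of FPKM + 1, and each SHP099 library was below every wild-type library. Il23a fell by 2.22 ± 0.27 (SE) on the log2 scale (adjusted p = 0.0116). The size of its fall depended on the method, at -3.11 with 0.1 FPKM added, -1.10 with 5 FPKM added and -3.24 by voom, with a call at 0.05 in each. Neither passed the stricter rule of an adjusted p of at most 0.005, which 0.131% of genes passed downward, and voom likewise gave 2 subunits at 0.05 and 0 at the stricter rule. The log2 fold change was -1.49 ± 0.38 for Il27 (adjusted p = 0.0602), -0.87 ± 0.39 for Il12a (0.206) and -0.16 ± 0.18 for Ebi3 (0.626). Il27 gained a call at 0.05 with the replicate number as a block (adjusted p = 0.0304) and without wild-type replicate 2 (0.0397). Without single replicates Il12a ran from -1.28 to -0.52. Il12b, Il23a and Il27 did not overlap between groups, as 6.77% of all genes did not in this direction. The adjusted p of Il12b rose above 0.05 without wild-type replicate 1 (0.0653) and without SHP099 replicate 1 (0.112), 2 (0.133) or 3 (0.0706), and that of Il23a without SHP099 replicate 2 (0.0649). With no filter on low FPKM both lost the call, at 0.131 for Il12b and 0.0664 for Il23a.

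**Figure D2:**
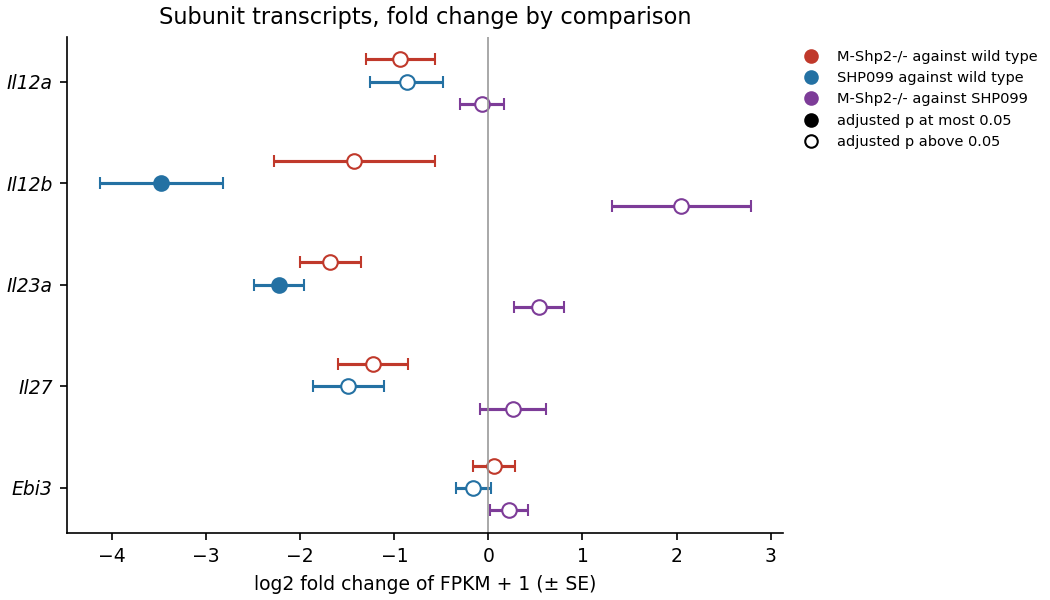
Log2 fold change of each subunit gene on the scale of FPKM + 1, with its SE, in the 3 comparisons, each with 3 libraries against 3. Filled points mark an adjusted p of at most 0.05 and are Il12b (-3.48) and Il23a (-2.22) in SHP099 against wild type.

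M-Shp2-/- and SHP099 were compared directly, since a call against wild type in one and not in the other does not show that they differ. Il12b was higher in M-Shp2-/- by 2.05 ± 0.74 (SE) on the log2 scale, with an adjusted p of 0.355. Il23a had a log2 difference of 0.54 ± 0.27 (adjusted p = 0.445), Il27 of 0.26 ± 0.36 (0.772), Ebi3 of 0.22 ± 0.20 (0.666) and Il12a of -0.07 ± 0.24 (0.925). In limma 0 of 5 subunits passed either rule and 1, Il12b, had an unadjusted p under 0.05, as did 1437 of 11450 genes. By voom 1 of 5 did, as did 1381 of 11353 genes. Of all genes, 0% passed the stricter rule downward, 0.0437% were lower at the limit of 0.05, and 7.9% were higher without overlap between groups, which no subunit was. Leaving out M-Shp2-/- replicate 3 changed the call of Il12b, to a log2 difference of 2.87 and an adjusted p of 0.00976. In that fit 903 genes were lower and 1374 higher at 0.05, against 5 and 3 with all replicates.

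The subunits that pair with each other were then set against each other within each library, as the ratio of their FPKM. For IL-12, Il12b exceeded Il12a by 11.4, 3.89 and 4.02 times in wild type and by 5.71, 7.35 and 1.55 times in M-Shp2-/-. In SHP099 the ratio of Il12b to Il12a was 0.694, 0.948 and 1.16, so that both transcripts were at a like level by mean transcript length. The SHP099 libraries lay below all 6 others. The mean log2 ratio was 2.49 ± 0.88 (SD, n = 3) in wild type, 2.01 ± 1.21 in M-Shp2-/- and -0.13 ± 0.37 in SHP099. The difference of SHP099 from wild type was -2.62 ± 0.55 (SE) and that of M-Shp2-/- from SHP099 2.14 ± 0.73 (SE). In the 2-sided exact permutation test each gave p = 0.1, the smallest that 3 against 3 libraries allow, and 0.24 after Benjamini-Hochberg adjustment over the 12 tests of 4 pairs in 3 comparisons. M-Shp2-/- and wild type overlapped, with a difference of -0.48 ± 0.86 in the log2 ratio of Il12b to Il12a (exact p = 0.6, adjusted 0.655). Over left-out replicates this difference ran from -0.92 to 0.21.

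For IL-23, Il12b exceeded Il23a in every library, by 53.4 to 179 times in wild type, 29.5 to 365 times in M-Shp2-/- and 38.5 to 121 times in SHP099. Il23a was thus the scarcer transcript of this pair throughout, and the 3 groups overlapped. Within M-Shp2-/- the ratio of Il12b to Il23a was 365 and 355 in replicates 1 and 2 and 29.5 in replicate 3. The log2 ratio differed between SHP099 and wild type by -0.39 ± 0.72 (SE; exact permutation p = 0.6) and between M-Shp2-/- and wild type by 0.74 ± 1.29 (exact p = 0.6). Over left-out replicates the first difference ran from -0.76 to 0.13 and the second from 0.15 to 1.92. With a pseudocount of 1 FPKM they were -1.25 and 0.26.

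For IL-27, Il27 exceeded Ebi3 by 4.50, 3.54 and 8.21 times in wild type. The ratio was 2.04, 2.39 and 1.75 in M-Shp2-/- and 1.88, 1.53 and 2.74 in SHP099. Every wild-type library had a higher ratio of Il27 to Ebi3 than all 6 others. Against wild type the log2 ratio differed by -1.31 ± 0.38 (SE) in M-Shp2-/- and by -1.35 ± 0.44 in SHP099. Each had an exact permutation p of 0.1 (adjusted 0.24). M-Shp2-/- and SHP099 overlapped, with a difference of 0.04 ± 0.28 in the log2 ratio of Il27 to Ebi3 (exact p = 1).

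The chains of IL-35, Il12a and Ebi3, gave the remaining pair. Il12a exceeded Ebi3 by 6.25, 4.66 and 13.1 times in wild type, by 2.92, 4.07 and 3.97 times in M-Shp2-/-, and by 3.98, 4.23 and 5.22 times in SHP099. The log2 ratio of Il12a to Ebi3 was below all wild-type libraries in M-Shp2-/-, with a difference of -1.01 ± 0.47 (SE; exact permutation p = 0.1, adjusted 0.24). SHP099 overlapped wild type, with a difference of -0.71 ± 0.46 (exact p = 0.2, adjusted 0.343).

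**Figure D3:**
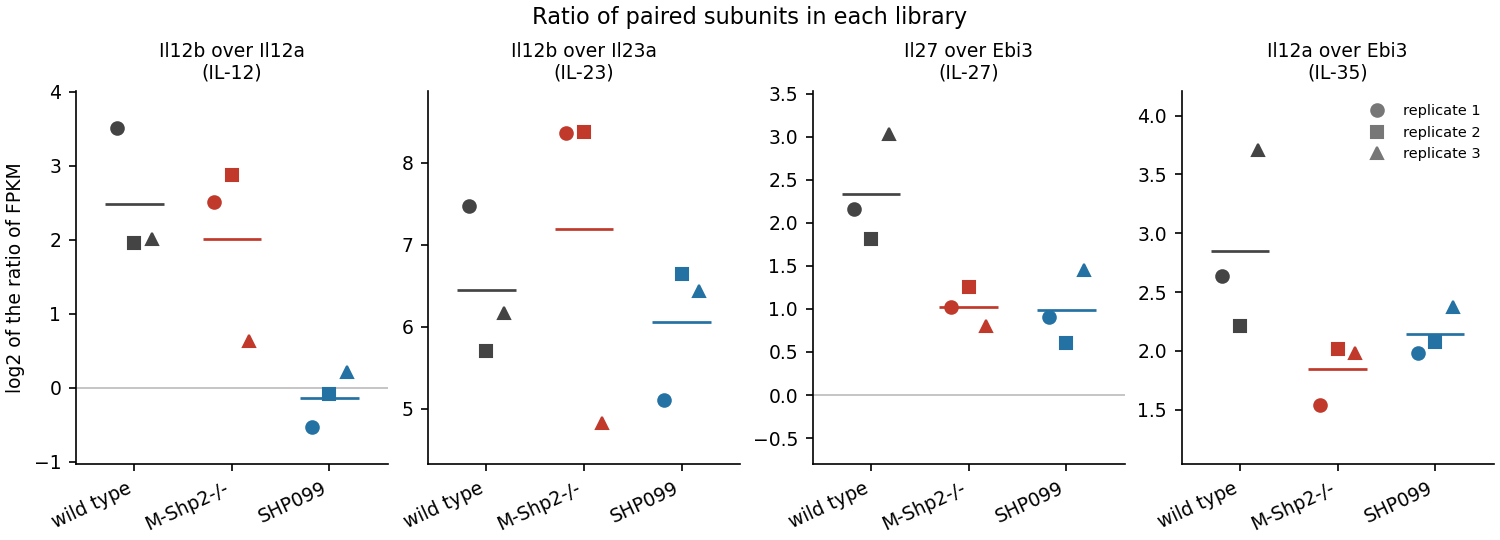
Log2 ratio of the FPKM of paired subunits in each library (0.1 FPKM added to each gene), with a line at the group mean, symbols for the replicate number and an axis range of its own per panel. Il12b over Il12a is between -0.53 and 0.21 in SHP099 and at least 0.63 in the other 6 libraries, and Il27 over Ebi3 is at least 1.82 in wild type and at most 1.45 elsewhere.

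Libraries low in Il12b were high in fibroblast genes within each group. Wild-type replicate 2, M-Shp2-/- replicate 3 and SHP099 replicate 1 had the highest sum of fibroblast and mesothelium markers of their groups, at 272, 549 and 334 FPKM. The same 3 libraries were the lowest of their groups for Il12a, Il12b, Il27 and Ebi3, while Il23a was lowest in another library in M-Shp2-/- and SHP099. Itgax was low where Il12b was low in SHP099 and in M-Shp2-/- replicate 3, and wild-type replicate 2 held 77.8 FPKM of it, between the other libraries of its group. The part of these cells in the level of Il12b was not tested. Without these 3 libraries, a choice made after seeing the data, the log2 fold change was -3.74 for Il12b and -2.52 for Il23a in SHP099 against wild type, and 2.45 for Il12b in M-Shp2-/- against SHP099. Since the 3 libraries left out are also the lowest in Il12b, this choice selects on Il12b itself, and these values test neither Il12b nor the part of other cells.

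**Figure D4:**
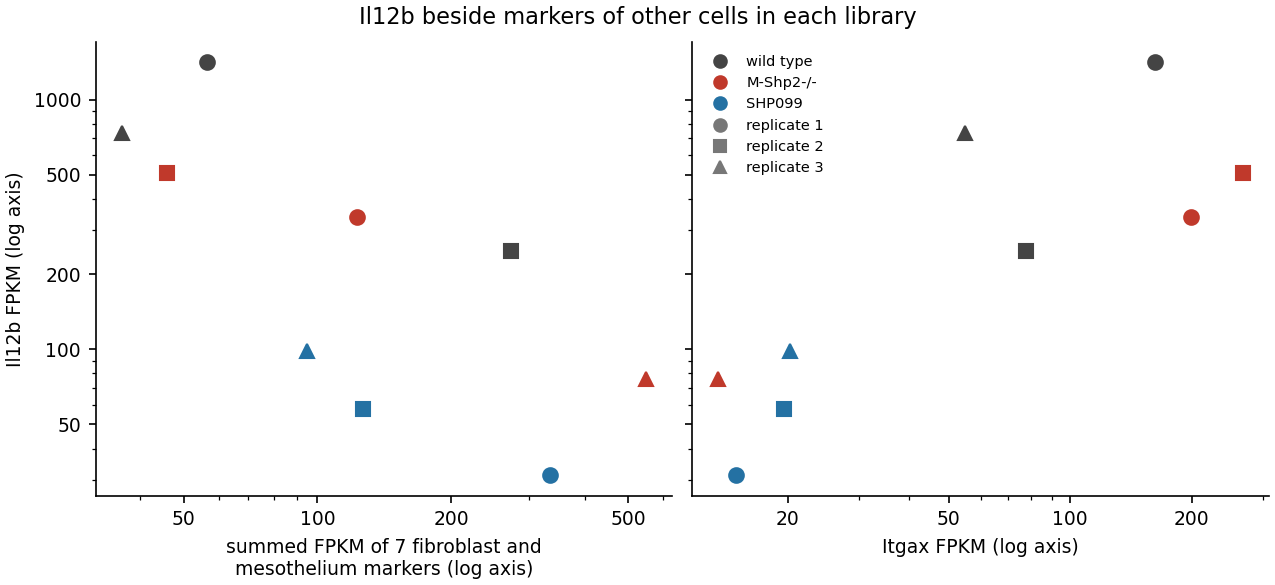
Il12b FPKM in each of the 9 libraries against the summed FPKM of 7 fibroblast and mesothelium markers (left) and against Itgax FPKM (right), all axes logarithmic, colours for groups and symbols for replicate numbers. Within each group the library with the highest marker sum (272, 549 and 334 FPKM) has the lowest Il12b (247, 75.8 and 31.3 FPKM).

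Across the 9 libraries, the genes whose log2(FPKM + 1) followed each subunit most closely were named as a description, since these libraries share groups and cell makeup. For Il12a they were Rel, which encodes the NF-κB subunit c-Rel, Ms4a6b, Vasp, Ifi27l2a and Tnip3, with Pearson r from 0.982 for Rel down to 0.942 for Tnip3. For Il12b they were Tlr8, Sowahc, Fhl3, Gramd1a and Psmb6 (r = 0.971 to 0.975). Tlr8 had 72.3, 37.5 and 60.3 FPKM in wild type, 32.4, 46.6 and 22.6 in M-Shp2-/-, and 8.93, 16.4 and 18.4 in SHP099. For Il23a they included Gm6377, Ppp1r15b, the histone demethylase gene Kdm6b and Srgn (r = 0.958 to 0.978). For Il27 they were Hcar2, Ist1, Milr1, Xkr8 and Ms4a4c (r = 0.957 to 0.972), and for Ebi3 they were Cox6c2, Rida, Fcer1g, Lonp2 and Pmpcb (r = 0.894 to 0.948). Among the subunits themselves, r over the 9 libraries was highest with Il27, at 0.929 for Il12a, 0.878 for Il12b and 0.815 for Il23a. It was 0.759 for Il12a with Il23a, 0.744 for Il12a with Il12b and 0.718 for Il12b with Il23a. Ebi3 had lower values, with 0.684 for Il12b, 0.481 for its partner Il27, 0.350 for Il12a and 0.0714 for Il23a.

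Other ligands of the IL-6 and IL-12 superfamily were measured beside the subunits, and 3 of 8 passed the filter. Il6, the founding member, had 221, 237 and 258 FPKM in wild type, 51.3, 54.1 and 51.3 in M-Shp2-/-, and 25.9, 18.3 and 58.4 in SHP099. Il6 fell by 2.17 ± 0.09 (SE) on the log2 scale in M-Shp2-/- (adjusted p = 0.00117, and 0.0820 with all 9 libraries in the fit), the gene that passed the stricter rule there. It lost that rule, but not the call at 0.05, with no filter (0.0143), with no trend (0.00578), with the block (0.0370) and in 6 of 6 fits without a replicate (0.00871 to 0.0295). It fell by 2.93 ± 0.37 in SHP099 (adjusted p = 0.0129, and 0.0541 without SHP099 replicate 1). Lif and Osm, which signal through the receptor chain gp130, fell in SHP099, with log2 fold changes of -2.09 and -1.46 (adjusted p = 0.00846 and 0.0176, and for Osm 0.0502 without SHP099 replicate 3). So 3 of 3 ligands tested fell in SHP099, against 276 of 11450 genes, and 1 of 3 in M-Shp2-/-, against 10 of 11450. With no filter on low FPKM all 3 lost the call in SHP099, at 0.0740 for Il6, 0.0629 for Lif and 0.0811 for Osm, and of the 16 genes outside the subunits that had passed, lists and markers together, Nfkb2 alone still did. In M-Shp2-/- the values were -1.14 for Lif (adjusted p = 0.388) and -1.11 for Osm (0.388). The median log2 fold change of the 3 ligands was -1.14 in M-Shp2-/- and -2.09 in SHP099, and that of the 5 subunits was -1.23 and -1.49, beside 0.15 and 0.13 for all genes tested. Median-of-ratios scaling moved the latter to -0.01 in both. The other 5 ligands listed had at most 0.433 FPKM. Without SHP099 replicate 1, 2 or 3, only 3, 3 and 5 of these 16 genes still passed.

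The chains of the IL-12 and IL-23 receptors were scarce. Il23r had at most 0.192 FPKM and Il12rb2 at most 1.22 FPKM, with Serbp1 on the opposite strand covering 1519 of its 3794 exonic bases. Il6st, which encodes gp130 and forms the IL-27 receptor with the product of Il27ra, had 27.5 to 40.8 FPKM and Il27ra 0.967 to 3.19 FPKM. Neither of these 2 tested genes passed an adjusted p of 0.05. Of the kinases and STAT factors behind the receptors, 5 of 6 were tested and 1, Jak2, passed an adjusted p of 0.05. Jak2 fell in SHP099 by 0.57 on the log2 scale (adjusted p = 0.0485, and 0.0502 after median-of-ratios scaling). This call was also lost without any 1 of the 6 replicates, with no filter, after quantile normalization, with no trend and with the block. In SHP099 against wild type 276 of 11450 genes fell. Jak1 ranged from 249 to 315 FPKM, Stat3 from 89.1 to 171 FPKM and Tyk2 from 24.2 to 39.4 FPKM.

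Of 18 transcription factors known to act on the subunit genes, all were tested. In SHP099 4 fell and 1 rose past 0.05, where 276 of 11450 genes fell and 521 rose, and in M-Shp2-/- none passed against wild type. Fos, an AP-1 subunit, fell by 1.71 on the log2 scale in SHP099 (adjusted p = 0.0445), from 9.29, 9.13 and 2.73 FPKM in wild type to 1.19, 1.17 and 1.32. This call was lost by voom (0.0620), which left 3 factors that fell, with 5 FPKM added (0.0594), with no filter (0.163), with no trend (0.0546), with the replicate number as a block (0.0574) and in 5 of 6 fits without a replicate. Fos was 1.56 ± 0.13 (SE) higher on the log2 scale in M-Shp2-/- than in SHP099 (adjusted p = 0.0163), a call lost with no filter (0.0818), with all 9 libraries in the fit (0.287), with the block (0.146) and in 5 of 6 fits without a replicate. Nfil3, Bcl3 and Nfkb2 fell in SHP099, with log2 fold changes of -0.99, -0.96 and -0.60 (adjusted p = 0.0192, 0.0136 and 0.0131). Nfil3 and Nfkb2 lost the call without any 1 SHP099 replicate, Bcl3 without SHP099 replicate 2 or 3, and Nfil3 and Bcl3 with no filter (0.0704 and 0.0664). Jun rose by 0.44 (adjusted p = 0.0438). This call was lost after median-of-ratios scaling (0.0712), with no filter, with no trend, with all 9 libraries in the fit and in 5 of 6 fits without a replicate. Spi1, which encodes PU.1, ranged from 680 to 889 FPKM, and Nfkb1 from 222 to 304 FPKM with an adjusted p of 0.0567 in SHP099. Irf1 had 249, 286 and 1062 FPKM in wild type, 190 to 341 in M-Shp2-/- and 511 to 673 in SHP099. Exons of Nfkb2 overlap 2 genes on the opposite strand, by 11.6% and 6.52% of its exonic bases, and those of Bcl3 and Jun overlap 1 each, by 6.51% and 7.28%.

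The TLR7 arm, through which IMQ signals, had 7 of 7 genes tested. In SHP099, where 276 of 11450 genes fell, 1 of 7 did, Tlr7. After quantile normalization 2 of 7 fell, where 356 of 11450 genes did. After median-of-ratios scaling 1 of 7 fell, a gene other than Tlr7, where 339 of 11450 did. Tlr7 itself fell by 0.75 ± 0.14 (SE) on the log2 scale (adjusted p = 0.0314, and 0.0541 after median-of-ratios scaling), a call also lost with no filter (0.111) and in 4 of 6 fits without a replicate. Its FPKM was 89.6, 87.0 and 103 in wild type, 73.8, 88.5 and 72.0 in M-Shp2-/-, and 49.6, 48.7 and 67.8 in SHP099. Unc93b1, which carries TLR7 to endosomes, had 207 to 330 FPKM, and Myd88 had 45.7 to 70.5 FPKM. None of the 7 passed in M-Shp2-/- against wild type. Of the 6 negative regulators 5 were tested, and 2 fell in SHP099, where 276 of 11450 genes did, Socs3 and the ribonuclease gene Zc3h12a, with log2 fold changes of -1.57 and -0.58 (adjusted p = 0.0157 and 0.0228). Both lost the call with no filter and without SHP099 replicate 1 or 2, and Zc3h12a also without wild-type replicate 1. Socs3 had 888, 1010 and 1517 FPKM in wild type, 434 to 488 in M-Shp2-/- (adjusted p = 0.204) and 315 to 450 in SHP099. Il10, a cytokine that restrains Il12b, did not pass the filter, with 0.568 to 2.43 FPKM in wild type, 0.737 to 1.27 in M-Shp2-/- and 0.0174 to 0.139 in SHP099.

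The 7 endoplasmic reticulum factors that fold secreted chains were all tested and none passed an adjusted p of 0.05 in any comparison. Calr, the most abundant, had 1044, 811 and 481 FPKM in wild type, 1041, 1058 and 430 in M-Shp2-/-, and 537, 484 and 510 in SHP099. All 7 had log2 fold changes below 0 in SHP099, as did 3298 of 11450 genes, with a median of -0.32. They stayed below 0 after median-of-ratios scaling, where 5821 of 11450 genes were, and after quantile normalization, where 5036 were. In M-Shp2-/- 0 of 7 were below 0, as were 2586 of 11450 genes, and the median was 0.12. After median-of-ratios scaling 5 of 7 were below 0 in M-Shp2-/-, as were 6037 of 11450 genes, and after quantile normalization 0 of 7 were, against 5011 genes.

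Lymphocyte cytokines that lie downstream of IL-12 and IL-23 were measured beside the subunits, and 3 of 5 were tested. Ifng had 5.06, 11.9 and 38.8 FPKM in wild type, 0.701, 1.35 and 2.21 in M-Shp2-/-, and 0.460, 1.01 and 4.34 in SHP099, with all wild-type libraries above all others. Its adjusted p was 0.424 in M-Shp2-/- and 0.0819 in SHP099, and Gm49751 on the same strand overlaps 25.9% of its exonic bases. Il17a had 0.5004, 5.91 and 1.305 FPKM in wild type, at most 0.300 in M-Shp2-/- and 0.107 to 2.65 in SHP099. Il22 had 0.934, 3.39 and 4.53 FPKM in wild type and was listed at 0 in M-Shp2-/- replicate 2 and in SHP099 replicates 1 and 2. T and NK cell markers summed to 0.782, 1.89 and 5.45 FPKM in wild type, to 0.501, 0.374 and 2.71 in M-Shp2-/-, and to 3.84, 3.72 and 2.84 in SHP099. Their part in the levels of Ifng, Il17a and Il22 was not tested.

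**Figure D5:**
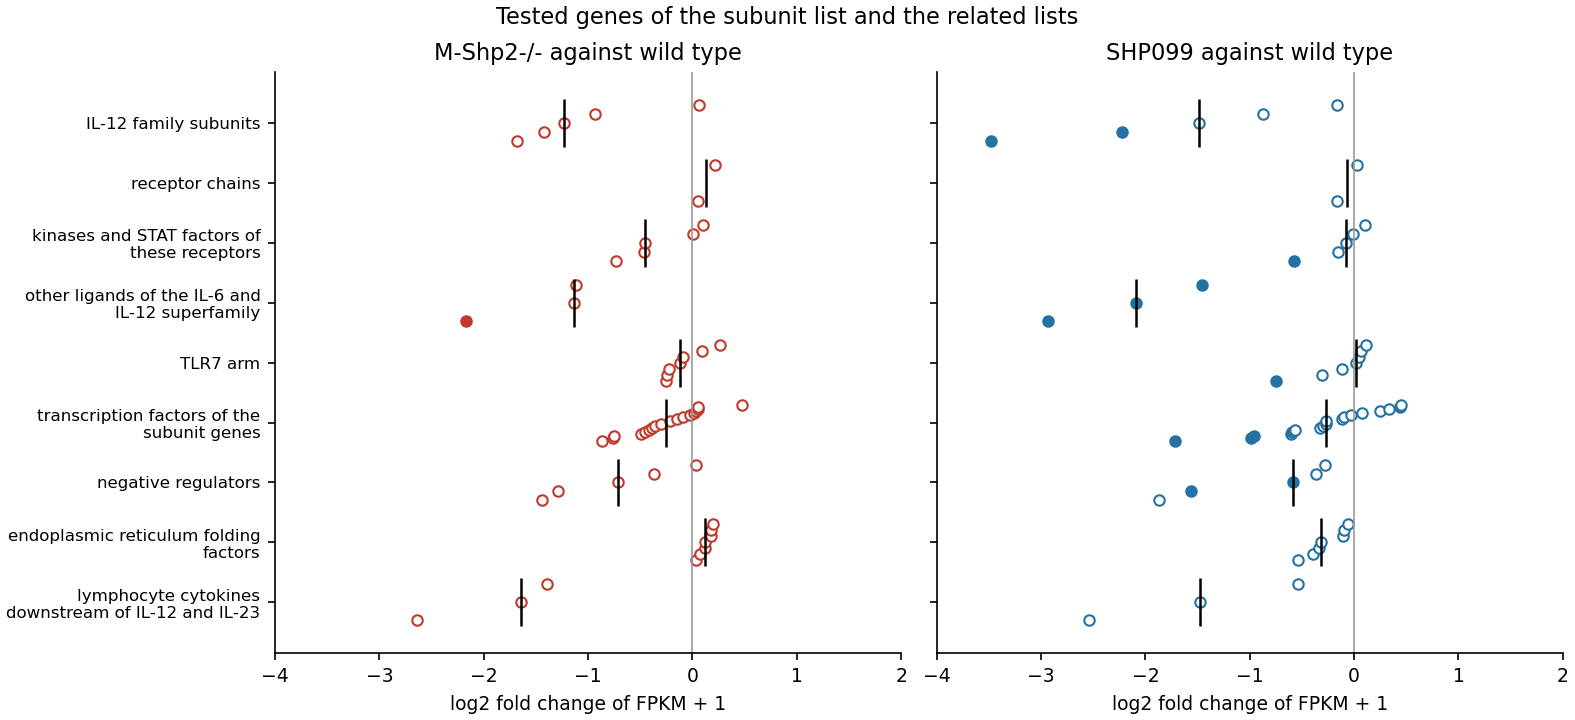
Log2 fold change on the scale of FPKM + 1 of every tested gene of the subunit family and of the related lists in M-Shp2-/- (left) and SHP099 (right) against the same wild-type libraries, with black bars at list medians. Filled points mark an adjusted p of at most 0.05; in M-Shp2-/- this is Il6 (-2.17), and in SHP099 it includes Il12b, Il23a, Il6, Lif and Osm.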

How the data were processed

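RNA was sequenced from 9 libraries, 3 in each of 3 groups, taken from the labels. The submitters' processing notes name CASAVA 1.8, HISAT2 2.0.4 and HTSeq 0.9.1. The values were deposited by the authors as FPKM for 54059 genes, and the genome build, annotation and counting strand are not given in the sources used here. The IMQ and SHP099 treatments come from the study's methods and legends, and the IMQ dose is given there for the comparison with SHP099. A deposited table of gene spans in an assembly was not used. Identifiers, positions and lengths come from GENCODE M21 (GRCm38), which lacks 353 of the genes.

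The members and lists were chosen with earlier results of these data known. Genes averaging at least 1 FPKM were kept, 11450 in all and each of the 5 subunits among them, and log2(FPKM + 1) was taken. Each comparison was fitted with limma 3.58.1 (lmFit, eBayes with trend) in R 4.3.3 on its 6 libraries, with Benjamini-Hochberg adjustment over all genes tested. A gene was called where its adjusted p reached 0.005 or less and its log2 fold change 1 or more in either direction, and a second rule asked only for 0.05. Ratios of paired subunits used 0.1 FPKM as pseudocount and an exact permutation test in scipy 1.17.1. Low FPKM were turned back into reads, with a floor of 3 reads for counting error only. Replicates differed beyond counting error, with chi-square values of 24.0 to 274 per degree of freedom. Tables used pandas 2.3.3 and numpy 2.4.6 in Python 3.11.15, plots used matplotlib 3.10.9, and the fits were tested on simulated data.

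The text names all subunits, of the other lists genes past an adjusted p of 0.05 and up to 4 more in order of mean FPKM, Ptpn11, cell type markers, genes whose exons overlap a named gene, and up to 5 of the genes most correlated with each subunit. The lists held receptor chains, kinases and STAT factors, other ligands, the TLR7 arm, transcription factors, negative regulators, folding factors and lymphocyte cytokines. Alternatives were pseudocounts of 0.1 and 5, no filter, a minimum mean of 5 FPKM, median-of-ratios scaling, quantile normalization, no trend, the replicate number as a block, a single fit to all 9 libraries, voom on recovered reads and each replicate left out. For ratios they were pseudocounts of 1 and 0.01, the longest transcript as length, the block and each replicate left out.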

Additional observations from a re-analysis of the deposited data

How the results depend on the processing

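No subunit passed the rule of an adjusted p of at most 0.005 under any alternative run. At an adjusted p of at most 0.05, the count for SHP099 against wild type was 0 with no filter, where 26663 genes were tested, and 1 with a minimum mean of 5 FPKM, where Il23a was not tested. It was 0 to 3 when single replicates were left out. With no filter the log2 fold changes were as before, -3.48 for Il12b and -2.22 for Il23a. Over left-out replicates they were -4.16 to -2.90 for Il12b (adjusted p 0.0182 to 0.133), -2.50 to -2.01 for Il23a (0.0122 to 0.0649), -1.84 to -1.22 for Il27 (0.0397 to 0.222, with a call only without wild-type replicate 2) and -0.27 to 0.0045 for Ebi3. In M-Shp2-/- against wild type, Ebi3 had -0.11 after median-of-ratios scaling and -0.077 after quantile normalization, and -0.10 to 0.24 over left-out replicates. In M-Shp2-/- against SHP099, left-out replicates gave 0 to 1 calls, 1.5 to 2.87 for Il12b and -0.28 to 0.16 for Il12a, and leaving out the library with the highest fibroblast sum in each group, an alternative chosen after seeing the data, gave 1 call and 2.45 for Il12b, which is no test, since the libraries left out are also the lowest in Il12b. The causes were not tested.

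Left-out replicates turned the log2 ratio of Il12b to Il12a in M-Shp2-/- against wild type (-0.92 to 0.21), of Il12b to Il23a in SHP099 against wild type (-0.76 to 0.13) and of Il27 to Ebi3 in M-Shp2-/- against SHP099 (-0.15 to 0.27). Each had groups that overlapped. The other ratios kept their sign, and some moved in size. Il12b to Il23a ran from 0.15 to 1.92 in M-Shp2-/- against wild type and from 0.53 to 2.31 against SHP099 over left-out replicates. With a pseudocount of 1 it was 0.26 in M-Shp2-/- and -1.25 in SHP099 against wild type. Without wild-type replicate 3, Il12a to Ebi3 was -0.58 in M-Shp2-/- and -0.28 in SHP099.

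Same-numbered libraries did not deviate together: the correlation of their deviations was 0.492, -0.431 and 0.185 between wild type and M-Shp2-/-, -0.041, -0.09 and 0.454 between wild type and SHP099, and -0.014, 0.183 and -0.047 between M-Shp2-/- and SHP099, and not every library correlated best with its own number. With the replicate number as a block, Il27 in SHP099 against wild type kept its log2 fold change of -1.49 with an adjusted p of 0.0304 and so gained a call at 0.05, and no other subunit's call changed. The block gave 2 genes lower at 0.05 in M-Shp2-/- against wild type, where 10 were without it, 253 in SHP099, where 276 were, and 0 in the direct comparison, where 5 were. It gave 338 higher genes in SHP099, where 521 were without it.

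Over the fits other than those without a replicate, 2 to 12 genes passed 0.05 in M-Shp2-/- against wild type, 74 to 889 in SHP099 against wild type and 0 to 17 in M-Shp2-/- against SHP099. Without single replicates these were 1 to 8, 47 to 1273 and 0 to 2277, and at the stricter rule 0, 0 to 26 and 0 to 159. Median-of-ratios scaling gave 339 lower and 172 higher genes in SHP099 against wild type, where 276 and 521 passed before.

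Of 16 calls at 0.05 outside the subunits in SHP099 against wild type, cell type markers included, 1 remained with no filter, 12 after median-of-ratios scaling, 3 without SHP099 replicate 1 or 2, 5 without replicate 3 and 0 without the libraries highest in fibroblast markers. In M-Shp2-/- against wild type, Il6 lost its call with all 9 libraries in one fit, and Ptpn11 with the block and in 4 of 6 fits without a replicate. In M-Shp2-/- against SHP099, Ptpn11 and Fos lost theirs with the block and in 5 of 6 such fits. The smallest value of Il23a rests on 29 reads, and the part of depth in its levels was not tested.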
